A study of Mus musculus with 16 samples.

Results

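The cytokines IL-6 and IL-10 and the receptor chains through which they signal were followed in the RNA of mouse monocytes, together with oncostatin M, a relative of IL-6. The 7 genes Il6, Il6ra, Il6st, Osm, Il10, Il10ra and Il10rb were chosen by symbol, and 6 of them have a row among the 13085 genes of the table used. Il10 is not analysed here. The monocytes came from NFAM1+/+ and NFAM1-/- C57BL/6 mice, from bone marrow by the study's methods, whereas the labels name them PBL monocytes. NFAM1 is an immune receptor whose cytoplasmic tail carries an activation motif, and in NFAM1-/- mice exons 2 and 3 of Nfam1 were deleted by CRISPR. The cells were cultured for 6 or 24 h without a stimulus, or with IFN-γ and MegaCD40L, a multimeric form of the ligand of CD40, at 1 ug/mL. The study's methods for stimulating monocytes add the IFN-γ 1 h earlier, a step that its methods for RNAseq do not name. The labels give 100 ug/mL of IFN-γ, and the study's methods for RNAseq give a lower dose. Each of the 8 combinations of genotype, stimulus and time has 2 libraries, which makes 16 in all, and single libraries are named by the number in their title. The age of the mice, and which mice or wells gave which library, are not given in the sources used here, so p-values measure only the spread between these libraries. The study names fewer mice of each genotype for its RNAseq than there are libraries here. Libraries of different conditions may therefore share a mouse, and all were treated as independent.

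IL-6 binds the IL-6 receptor, encoded by Il6ra, and the pair then engages gp130, encoded by Il6st, a signaling chain shared with the receptors of oncostatin M, LIF and other relatives. gp130 activates Janus kinases and STAT3, which raise acute phase and survival genes together with the feedback inhibitor SOCS3. IL-10 binds a receptor of an IL-10-specific chain, Il10ra, and a chain shared with related cytokines, Il10rb. It uses STAT3 as well and is known in monocytes and macrophages for restraining inflammatory cytokines, while Il6 itself is a classical target of NF-kB and C/EBP factors in activated macrophages.

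In the mouse reference GRCm38 with the GENCODE vM21 annotation, Il6 lies on chromosome 5 from 30013114 to 30019981 with 4 merged exons, and Osm on chromosome 11 from 4236420 to 4241026 with 3, both on the plus strand. Il6ra lies on the minus strand of chromosome 3 from 89864059 to 89913196 with 10 merged exons, and Il6st on the plus strand of chromosome 13 from 112464070 to 112510086 with 20. Il10ra lies on the minus strand of chromosome 9 from 45253837 to 45269149 with 7, and Il10rb on the plus strand of chromosome 16 from 91406164 to 91425834 with 8. The libraries were not stranded. Of the exonic bases of Il6ra 2.8% are shared with the antisense gene Gm42809, and of those of Il10rb 14.9% with the coding gene Gm21970 on the same strand, so some reads of these 2 members could belong to their neighbours. RefSeq sequences of the region before the start were at hand for 3 of the 7 members, Il6, Il6ra and Il6st. The 250 bases before each start are shown because these members moved differently under the stimulus, up, down and with little change. The build is GRCm38.p6, which is not the GRCm39 named in the submitters' processing notes, and capitals mark the motif matches described next.
Il6 promoter, chr5:30012864-30013113, plus strand: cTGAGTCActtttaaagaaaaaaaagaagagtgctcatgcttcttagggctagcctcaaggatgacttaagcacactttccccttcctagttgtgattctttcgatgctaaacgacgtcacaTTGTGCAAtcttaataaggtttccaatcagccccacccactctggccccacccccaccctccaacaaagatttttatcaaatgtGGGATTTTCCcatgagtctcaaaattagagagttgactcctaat
Il6ra promoter, chr3:89913197-89913446, minus strand: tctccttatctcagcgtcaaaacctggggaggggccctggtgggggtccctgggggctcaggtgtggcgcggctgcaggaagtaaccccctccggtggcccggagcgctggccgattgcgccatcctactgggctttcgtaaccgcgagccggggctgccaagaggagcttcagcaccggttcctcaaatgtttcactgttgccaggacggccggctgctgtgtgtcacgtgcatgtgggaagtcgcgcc
Il6st promoter, chr13:112463820-112464069, plus strand: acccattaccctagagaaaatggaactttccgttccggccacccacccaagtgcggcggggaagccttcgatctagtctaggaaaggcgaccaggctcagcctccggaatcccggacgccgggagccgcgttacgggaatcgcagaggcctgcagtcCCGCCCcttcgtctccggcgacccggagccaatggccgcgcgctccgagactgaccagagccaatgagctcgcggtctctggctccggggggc
7 motifs were searched on both strands. They were the kB consensus by its name, GAS as TTCNNNGAA, C/EBP as TTGCNNAA, AP-1 as TGANTCA, CRE as TGACGTCA, TATA as TATAAA and the GC box as GGGCGG, and no matches overlapped. The Il6 window held a kB match, GGGATTTTCC, at -44 to -35 relative to the start, a C/EBP match, TTGTGCAA, at -128 to -121, and an AP-1 match, TGAGTCA, at -249 to -243. Of the 32851 windows of this length in the RefSeq set, 3.9% held the kB consensus, 9.56% the C/EBP motif and 6.75% the AP-1 motif. The Il6st window held a GC box at -93 to -88, found in 32.7% of all windows, and the Il6ra window held none of the 7. Il6ra and Il6st both lie in GC-rich sequence, with 65.2% and 66% G or C against 42.8% before Il6. GAS matches stand in 7.02% of all windows and in none of these 3. A match is a description of the letters and not evidence of binding.

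The authors deposited log2 CPM, the reads of a gene scaled for the size of its library, and levels are given here as CPM. The reads behind each value could be recovered, and their sum over all genes of a library ran from 48295939 to 88514341. Those reads divided by the scaled library size of the deposited values came to 0.756 to 0.788 in unstimulated libraries, 1.24 to 1.32 in stimulated libraries at 6 h and 0.97 to 0.997 at 24 h, so the deposited scaling differs with the stimulus. All 9 monocyte markers were listed, with a summed level of 21900 to 30520 CPM in unstimulated and 8427 to 11830 CPM in stimulated libraries. That sum is carried by Lyz2, a lysozyme, with means of 16600 and 21920 CPM without and 3518 and 6195 CPM with the stimulus at 6 and 24 h. The markers did not all fall, as Ly6c2 and Fcgr1 were called higher at 6 h (log2 fold changes 2.53 and 4.47). The 9 neutrophil markers together were at 533 to 922 CPM in unstimulated cells at 24 h and at 72.4 to 360 CPM in the other libraries. The B, T and NK cell markers Ms4a1, Cd3d, Cd3e, Cd3g and Ncr1 have no row in the table. The 2 of 5 B cell markers listed, Cd79a and Cd79b, summed to at most 17.4 CPM, and the 2 of 5 T cell markers listed, Cd4 and Cd8a, to at most 6.81 CPM. Dendritic cell markers came to at most 176 CPM, and those of mast cells and basophils, erythroid cells, and stroma and endothelium to at most 29.6, 17.6 and 44.9 CPM. Among the 8 libraries of 24 h, 4 carry a genotype tag that contradicts their title. Groups follow the titles, and the tags are used as an alternative. Stimulus and time are given without conflict in all 16 libraries.

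Il6 rose most. Its transcript was scarcely present without the stimulus. With the deposited scaling, on which the size of these folds depends, it was 21.1-fold higher with the stimulus at 6 h and 69-fold higher at 24 h. In unstimulated libraries at 6 h Il6 was at 0.678 and 0.938 CPM in NFAM1+/+ and 0.666 and 0.844 CPM in NFAM1-/- monocytes, which rest on 58 to 96 reads per library. With the stimulus it was at 20.7 and 17.2 CPM in NFAM1+/+ and at 12.4 and 16 CPM in NFAM1-/- monocytes. By title, the unstimulated NFAM1+/+ libraries of 24 h were at 0.347 and 0.892 CPM and the NFAM1-/- libraries at 0.932 and 0.42 CPM. The stimulated ones were at 49.1 and 52.4 CPM in NFAM1+/+ and at 43.3 and 24.7 CPM in NFAM1-/- libraries. All 8 stimulated libraries were above all 8 unstimulated ones. The log2 fold change was 4.40 at 6 h (SE 0.307, adjusted p = 8.96e-09) and 6.11 at 24 h (SE 0.307, adjusted p = 2.94e-10). Il6 passed the filter on low values only through its stimulated libraries.

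Osm, the other ligand, encodes oncostatin M, which signals through gp130 with a chain of its own. It rose early and less at 24 h. At 6 h it was at 12.2 and 13.9 CPM in unstimulated NFAM1+/+ and 12.2 and 11.9 CPM in NFAM1-/- libraries, and with the stimulus at 37 and 35 CPM in NFAM1+/+ and 31 and 36.3 CPM in NFAM1-/- libraries. At 24 h by title it was at 20.8 and 22.6 CPM in unstimulated NFAM1+/+ and 15.9 and 16.2 CPM in NFAM1-/- libraries, against 32.6 and 27.3 CPM and 22.2 and 20.3 CPM with the stimulus. The stimulated and unstimulated libraries did not overlap at 6 h and did at 24 h, where 2 stimulated NFAM1-/- libraries lay below an unstimulated NFAM1+/+ one. The log2 fold change was 1.47 at 6 h (SE 0.0804, adjusted p = 5.81e-10) and 0.43 at 24 h (SE 0.0804, adjusted p = 2.52e-04), the latter under 2-fold. With CPM computed from the sum of its own reads in each library (own totals) these became 0.74, also under 2-fold, and 0.10 (adjusted p = 0.296).

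**Figure D1:**
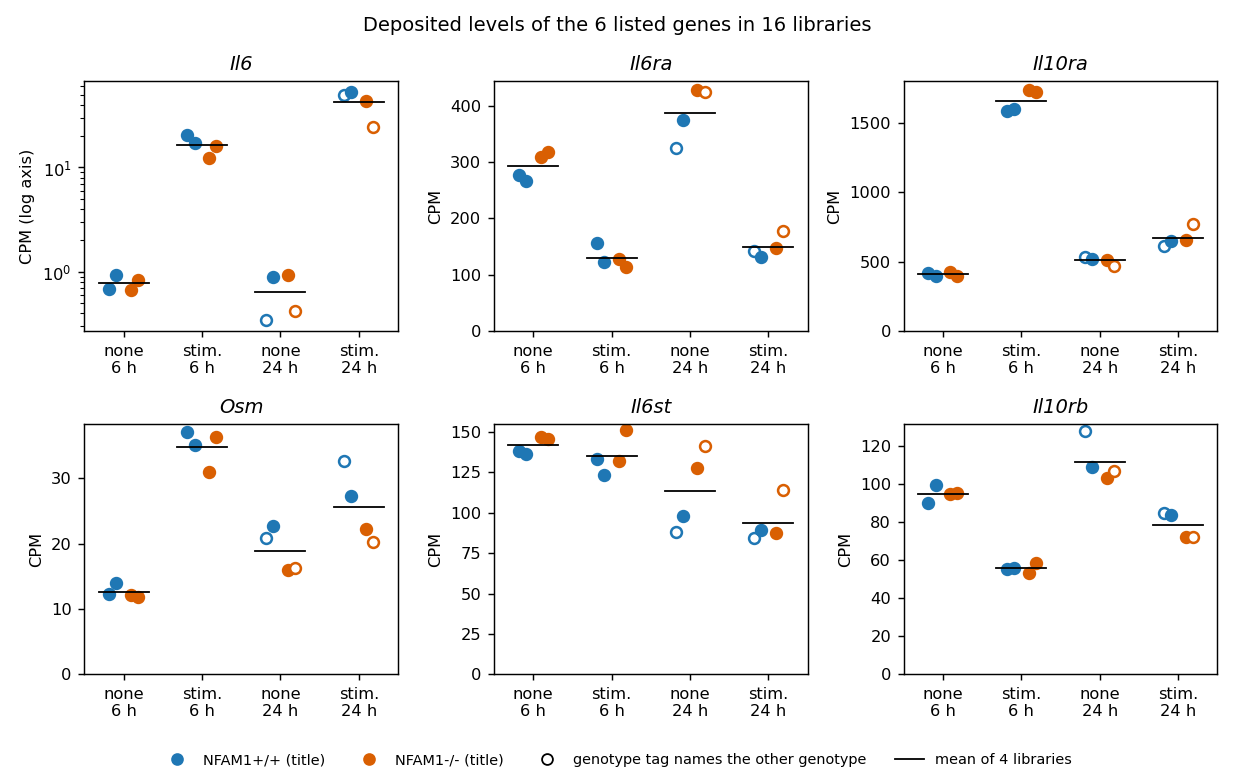
CPM of Il6 (log axis) and of Osm, Il6ra, Il6st, Il10ra and Il10rb (linear axes from 0) in each of 16 libraries by stimulus (none, or IFN-γ plus CD40L) and time, colored by the genotype of the title; open circles are the 4 libraries whose tag names the other genotype, and lines are means of 4 libraries. Il6 stands between 0.347 and 0.938 CPM without and between 12.4 and 52.4 CPM with the stimulus, while Il10ra peaks at 6 h of stimulation.

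The receptor chains moved apart. Il6ra, which gives the cell its IL-6 binding chain, fell at both times, and Il6st, the shared chain, changed little. Il6ra was at 276 and 266 CPM in unstimulated NFAM1+/+ and 309 and 318 CPM in NFAM1-/- monocytes at 6 h, and with the stimulus at 156 and 123 CPM and at 128 and 114 CPM. By title at 24 h it was at 324 and 374 CPM in unstimulated NFAM1+/+ and 428 and 423 CPM in NFAM1-/- libraries, and with the stimulus at 142 and 132 CPM and at 148 and 178 CPM. Every stimulated library was lower than every unstimulated one. The log2 fold change of Il6ra was -1.18 at 6 h (SE 0.0796, adjusted p = 6.35e-09) and -1.37 at 24 h (SE 0.0796, adjusted p = 1.45e-09), 2.26-fold and 2.59-fold lower. When libraries were centred on their medians it was -0.9995 at 6 h, just short of 2-fold, which leaves 3 members called there.

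Il6st was at 139 and 137 CPM in unstimulated NFAM1+/+ and 147 and 146 CPM in NFAM1-/- monocytes at 6 h, and at 133 and 123 CPM and 132 and 152 CPM with the stimulus. The 2 sets overlapped, and the log2 fold change was -0.08 with a 95% interval of -0.241 to 0.0904 (adjusted p = 0.381). At 24 h by title it was at 88 and 98.3 CPM in unstimulated NFAM1+/+ and 128 and 141 CPM in NFAM1-/- libraries, and at 84.2 and 89.3 CPM and 87.8 and 114 CPM with the stimulus. The sets overlapped again, with a log2 fold change of -0.26 (SE 0.0769, adjusted p = 0.00684), 1.20-fold lower. The direction at 6 h depends on the scaling, since the log2 fold change was -0.81 with own totals, -0.59 with quantile normalization and 0.10 when libraries were centred on their medians. Over all genes the median log2 change at 6 h was -0.13 as deposited and -0.86 with own totals, and it was -0.23 with quantile normalization.

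Il10ra, the ligand-binding chain for IL-10, had the highest level of the 6 and rose 4.04-fold at 6 h. It was at 423 and 398 CPM in unstimulated NFAM1+/+ and at 429 and 394 CPM in NFAM1-/- monocytes, and with the stimulus at 1583 and 1602 CPM and at 1735 and 1721 CPM. The 4 libraries of each condition lay close together and far from the other condition. By title, it was at 24 h at 537 and 523 CPM in unstimulated NFAM1+/+ and 512 and 470 CPM in NFAM1-/- libraries, and with the stimulus at 612 and 651 CPM and at 659 and 770 CPM. The sets did not overlap at 24 h either, although they were much nearer to each other. The log2 fold change was 2.01 at 6 h (SE 0.058, adjusted p = 4.79e-13) and 0.40 at 24 h (SE 0.058, adjusted p = 2.61e-05). The rise at 24 h rests on the scaling, as it was 0.06 with own totals (adjusted p = 0.338) and -0.15 with quantile normalization (adjusted p = 0.0348). At 6 h it was 1.28 and 0.97 under these 2 scalings, still higher, the latter just under 2-fold.

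Il10rb, the chain shared by IL-10 and its relatives, was lower with the stimulus at both times, by less than 2-fold. At 6 h it was at 90.1 and 99.6 CPM in unstimulated NFAM1+/+ and 94.9 and 95.1 CPM in NFAM1-/- monocytes, and at 55.4 and 56.1 CPM and 53.4 and 58.7 CPM with the stimulus. At 24 h by title it was at 128 and 109 CPM in unstimulated NFAM1+/+ and 103 and 107 CPM in NFAM1-/- libraries, and at 84.6 and 83.7 CPM and 72.4 and 72.2 CPM with the stimulus. No stimulated library reached an unstimulated one. The log2 fold change was -0.76 at 6 h (SE 0.0566, adjusted p = 1.71e-08) and -0.51 at 24 h (SE 0.0566, adjusted p = 1.51e-06). It was -1.50 at 6 h with own totals and -1.01 with quantile normalization, both past 2-fold.

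A gene is called here when it differs by at least 2-fold with an adjusted p under 0.05. At 6 h 3 of the 6 members tested were called higher with the stimulus and 1 lower, where 19.1% of the 12782 genes tested were called higher and 20.6% lower. At 24 h Il6 was called higher and Il6ra lower, against 14.6% and 18.7% of all genes. The median log2 fold change of the 6 members was 0.70 at 6 h and 0.07 at 24 h, beside -0.13 and 0.01 over all genes tested. With own totals the members' medians were -0.03 and -0.27, beside -0.86 and -0.33 over all genes. At 6 h 2 members, Il6 and Il10ra, were then called higher and 2 lower, and at 24 h Il6 was called higher and 1 member lower. Of all genes 1562 were called higher and 5563 lower at 6 h with own totals, against 2440 and 2629 as deposited. Since Il6 passed the filter only through libraries in which it is high, these counts are a description of the members. Bulk RNA cannot tell fewer cells of a type from less RNA per cell.

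**Figure D2:**
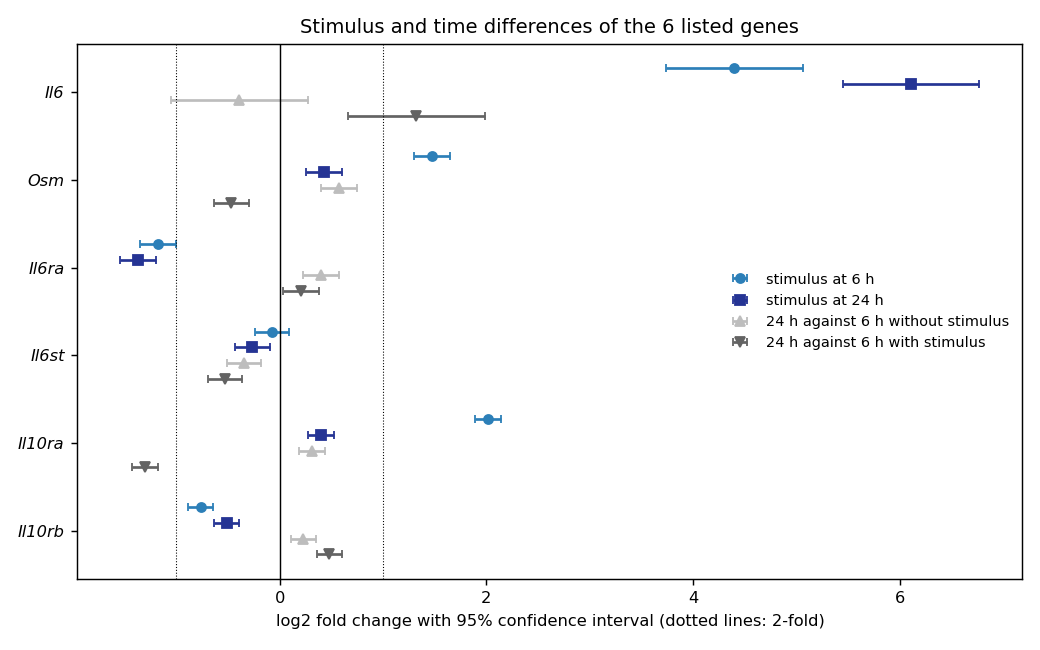
Log2 fold changes with 95% confidence intervals for the 6 listed genes, for the stimulus at each time and for 24 h against 6 h in each condition; dotted lines mark 2-fold. The stimulus effect of Il6 is 4.40 at 6 h and 6.11 at 24 h, and that of Il10ra is 2.01 and 0.40.

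The time course set the members apart. Among stimulated cells Il6 was 2.50-fold higher at 24 h than at 6 h (log2 fold change 1.32, SE 0.307, adjusted p = 0.00137), and the 4 libraries at 24 h were all above those at 6 h. Il10ra went the other way, with a log2 fold change of -1.31 (SE 0.058, adjusted p = 1.3e-10), and again no library overlapped. These 2 were the members called with 24 h against 6 h in stimulated cells, 1 in each direction, where 16.5% of all genes were called higher and 17.2% lower. The other 4 also passed the adjusted p at under 2-fold, with log2 fold changes of -0.53 for Il6st, -0.47 for Osm, 0.48 for Il10rb and 0.21 for Il6ra. That of Il6ra did not pass without library 10, 12, 56 or 58 (adjusted p from 0.0913 to 0.149). That of Osm was -0.09 with own totals (adjusted p = 0.304) and that of Il6st -0.16 (adjusted p = 0.0735). Il10ra fell by 0.93 with own totals and by 0.77 with quantile normalization, under 2-fold in both.

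In unstimulated cells no member was called between the times, against 13.2% of all genes called higher and 7.76% lower. Osm was higher at 24 h by a log2 fold change of 0.58 (adjusted p = 2.62e-05), Il6ra by 0.40 (adjusted p = 5.66e-04), Il10ra by 0.31 (adjusted p = 3.33e-04) and Il10rb by 0.23 (adjusted p = 0.00277), while Il6st was lower by 0.34 (log2 fold change -0.34, adjusted p = 0.0014). Il6 at -0.39 did not pass (adjusted p = 0.284), and without library 45 it did (-0.73, adjusted p = 0.04). The summed neutrophil markers were higher in these 4 libraries at 24 h than in any other. S100a8, S100a9, Ngp, Camp and Ltf carried that sum. Mpo and Elane of the same list had their highest means in stimulated cells at 6 h. These were 6.53 and 8.66 CPM, against 4.28 and 2.45 CPM in unstimulated cells at 24 h. The summed dendritic cell markers were also highest in unstimulated cells at 24 h, at 85.2 to 176 CPM against at most 38.8 CPM elsewhere. Flt3 carried that sum, and Siglech was highest there too. Zbtb46 was highest in stimulated cells at 24 h (13.95 to 21.7 CPM), and Xcr1 in stimulated cells at 6 h (3.96 to 8.48 CPM). The summed B cell markers listed were at 6.54 to 17.4 CPM in unstimulated cells at 24 h, against at most 4.795 CPM elsewhere. Cd79b carried that sum, while Cd79a averaged 0.952 CPM at 6 h and 0.891 CPM at 24 h without the stimulus. The summed T cell markers listed reached their highest in those libraries too, at 4.19 to 6.81 CPM against at most 4.24 CPM. Cd4 was highest there (2.88 to 3.14 CPM), whereas Cd8a was higher on average in stimulated cells at 24 h (3.18 against 2.59 CPM). The part of those cells in these differences was not tested.

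Tested directly, the response to the stimulus differed between the times for 4 members. The difference of the 2 effects, 24 h minus 6 h, was 1.71 for Il6 (SE 0.434, adjusted p = 0.00321), -1.04 for Osm (SE 0.114, adjusted p = 2.22e-06) and -1.62 for Il10ra (SE 0.082, adjusted p = 1.77e-09), which were called, and 0.25 for Il10rb (SE 0.08, adjusted p = 0.013), under 2-fold. Of all genes 31.5% were called in this comparison in one direction or the other. For Il6ra and Il6st the difference was -0.19 in each, with 95% intervals of -0.437 to 0.0481 and -0.422 to 0.0467. With own totals that of Osm was -0.65, still past the adjusted p and under 2-fold, and without library 57, 12 or 1 it also came just under 2-fold, to -0.98 without library 57. The difference of Il6ra passed the adjusted p without library 10 (-0.28, adjusted p = 0.0219), and that of Il6st without library 58 (-0.28, adjusted p = 0.0133).

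In a ratio of 2 genes within a library any factor common to all genes cancels, so own totals and centring on medians leave it as it is. Quantile normalization has no such common factor, and the ratios were taken from the deposited values. The ratio of Il6ra to Il6st, the binding chain over the signaling chain, averaged 2.06 ± 0.104 (SD, n = 4) without and 0.97 ± 0.172 with the stimulus at 6 h. At 24 h it was 3.46 ± 0.365 without and 1.60 ± 0.101 with the stimulus. In all 4 comparisons the sets of 4 libraries did not overlap. The log2 ratio differed by -1.10 at 6 h and by -1.11 at 24 h between stimulated and unstimulated cells, and it was 0.75 and 0.74 higher at 24 h than at 6 h without and with the stimulus.

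The ratio of Il10ra to Il10rb rose from 4.34 ± 0.324 to 29.7 ± 1.87 with the stimulus at 6 h and from 4.59 ± 0.347 to 8.70 ± 1.53 at 24 h (SD, n = 4). Its 4 stimulated libraries at 6 h lay between 28.6 and 32.5. The log2 ratio was higher with the stimulus by 2.78 at 6 h and by 0.91 at 24 h, and in stimulated cells it was 1.79 lower at 24 h (difference -1.79). In unstimulated cells it differed by 0.08 between the times (exact two-sided permutation test, p = 0.343). For the other 7 of 8 ratio tests the exact permutation test gave p = 0.0286, the smallest that 4 libraries against 4 can reach, and 0.0327 after Benjamini-Hochberg adjustment over the 8.

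**Figure D3:**
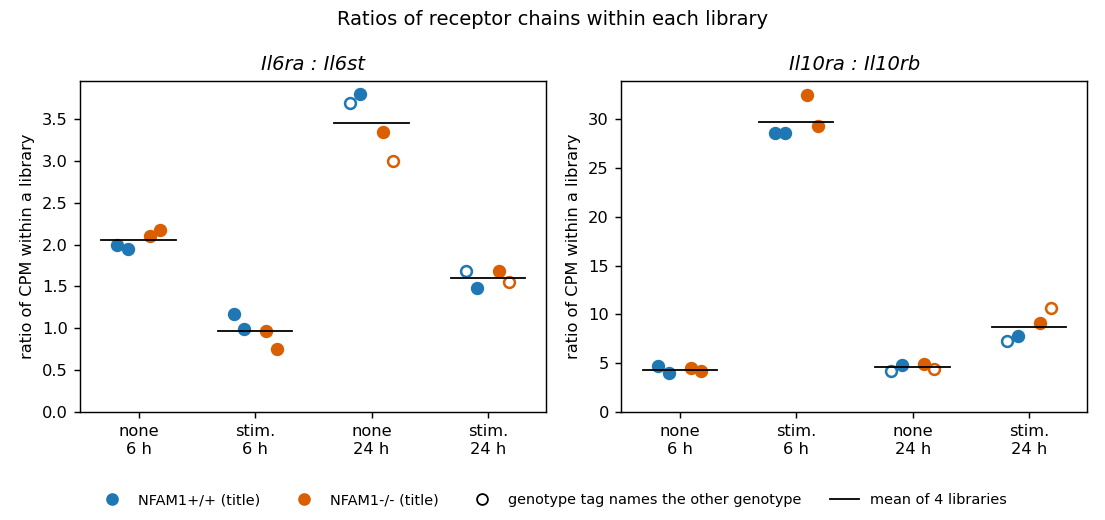
Ratio of the CPM of Il6ra to Il6st (left) and of Il10ra to Il10rb (right) within each of 16 libraries, by stimulus and time, colored by the genotype of the title; open circles are libraries whose tag names the other genotype, and lines are means of 4. The Il6ra to Il6st ratio is lower with the stimulus at both times, and the Il10ra to Il10rb ratio is highest at 6 h of stimulation, between 28.6 and 32.5.

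Levels of different genes are compared per kilobase of merged exons. In unstimulated cells at 6 h the order was Il10ra at 118 CPM per kb, Il6ra at 33.8, Il10rb at 24.9, Il6st at 12.8, Osm at 5.52 and Il6 at 0.322, with no overlap between neighbours over 4 libraries each. With the stimulus at 6 h Il10ra stood at 475 CPM per kb, and Osm at 15.3, Il6ra at 15 and Il10rb at 14.7 followed with ranges that overlapped each other. Il6st at 12.2 lay below Il10rb without overlap, but its range of 11.1 to 13.7 overlapped those of Osm, from 13.6, and Il6ra, from 13.2. Il6 at 6.82 lay below Il6st. In unstimulated cells at 24 h the order was that of 6 h, from Il10ra at 146 CPM per kb to Il6 at 0.267, with Osm at 8.32 and Il6st at 10.3 overlapping. With the stimulus at 24 h Il6 had reached 17.4 CPM per kb, with a range of 10.2 to 21.6. It overlapped Il10rb at 20.5, Il6ra at 17.3, Osm at 11.2 and Il6st at 8.45, and Osm and Il6st overlapped each other. Il10ra was first throughout.

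Over the 16 libraries the genes most like each member were named by the Pearson correlation of log2 CPM, as a description over libraries that share their stimulus and time. They were Mfsd7a, Cc2d2a and Glipr2 for Il6 (r from 0.985 to 0.990), Mtus1, Tnfrsf21 and Cd33 for Il6ra (0.986 to 0.991) and Ifi207, Csf2rb2 and Sgcb for Il10ra (0.993 to 0.994). Kif1c, Mpp1 and Dst were nearest to Osm (0.948 to 0.962), Tfeb, Tkt and Dnase1l1 to Il10rb (0.978 to 0.981), and Chil3, Luc7l2 and Gin1 to Il6st, at 0.899 to 0.903 the loosest.

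Nfam1 itself was read over the whole gene, of which the deletion takes a part. At 6 h without the stimulus it was at 408 and 432 CPM in NFAM1+/+ and 299 and 321 CPM in NFAM1-/- libraries (log2 fold change -0.44, adjusted p = 0.0514), and with the stimulus the 2 genotypes overlapped at 127 to 135 CPM. At 24 h by title the NFAM1-/- libraries were lower in both conditions, at 391 and 441 against 463 and 495 CPM and at 201 and 223 against 252 and 271 CPM, and by tag they overlapped in both.

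No member was called between NFAM1-/- and NFAM1+/+ monocytes in any of 4 conditions. The genes called were 0.0861% of all at 6 h without and 0% with the stimulus, and 0.289% and 0.579% at 24 h by title. For the 0 of 12782 genes called by limma at 6 h with the stimulus, 1862 had an unadjusted p under 0.05, and 126 were called without library 10. Il6 was lower in both stimulated NFAM1-/- libraries than in both NFAM1+/+ ones at each time by title, but its log2 fold changes of -0.42 at 6 h and -0.63 at 24 h had intervals of -1.35 to 0.517 and -1.57 to 0.302. By tag the stimulated libraries of 24 h overlapped, and the log2 fold change was 0.36. At 6 h the other members differed between genotypes by log2 fold changes of -0.20 to 0.21 (adjusted p from 0.436 to 0.997). Il6ra in unstimulated cells did not overlap, at 309 and 318 against 276 and 266 CPM, with a log2 fold change of 0.21 (adjusted p = 0.59). Neither did Il6st (147 and 145.7 against 138.5 and 136.6 CPM) and Osm (12.16 and 11.86 against 12.24 and 13.9 CPM) there. With the stimulus Il10ra did not overlap either, at 1735 and 1721 against 1583 and 1602 CPM. An exact permutation test of 2 libraries against 2 cannot go below p = 0.333. How many of all genes separate in this way was not counted. The interaction of genotype and stimulus at 6 h was -0.41 for Il6ra (unadjusted p = 0.0232, adjusted p = 0.524), 0% of all genes were called in it, and 1090 of 12782 had an unadjusted p under 0.05.

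At 24 h 2 members passed the adjusted p by title, both under 2-fold. Il6st was higher in unstimulated NFAM1-/- libraries, at 128 and 141 against 88 and 98.3 CPM (log2 fold change 0.53, SE 0.109, adjusted p = 0.0379). Osm was lower in stimulated NFAM1-/- libraries, at 22.2 and 20.3 against 32.6 and 27.3 CPM (log2 fold change -0.49, SE 0.114, adjusted p = 0.0468), and in unstimulated ones its log2 fold change was -0.43 (adjusted p = 0.111). With the genotype of the tag the log2 fold change of Il6st was -0.15 and that of Osm in stimulated cells 0.19, each with an adjusted p of 1. The pass of Il6st was lost without any 1 of its 4 libraries (adjusted p from 0.062 to 0.362), and that of Osm without library 56 or 58 (adjusted p = 0.474 and 0.39). The direction thus turns with the label used, and which of the labels is right was not tested. Il6ra was higher by title in both conditions, by 0.29 and 0.25 (adjusted p = 0.348 and 0.314), and Il10rb lower, by log2 fold changes of -0.17 and -0.22 (adjusted p = 0.48 and 0.188). Il10ra differed by -0.11 without and 0.17 with the stimulus (adjusted p = 0.701 and 0.331). Markers of cell types also differed by title at 24 h. Cd14 was called lower in stimulated NFAM1-/- libraries (log2 fold change -1.84, adjusted p = 0.0156), Ccr2 was higher there at under 2-fold (0.86, adjusted p = 0.0359), and so was Flt3 in unstimulated ones (0.92, adjusted p = 0.0362). The call of Cd14 was lost in a fit of only the groups compared, where 0 genes were called with the stimulus. By tag 3 genes were called with the stimulus at 24 h, against 74 by title. The part of these markers in the differences of the members was not tested.

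**Figure D4:**
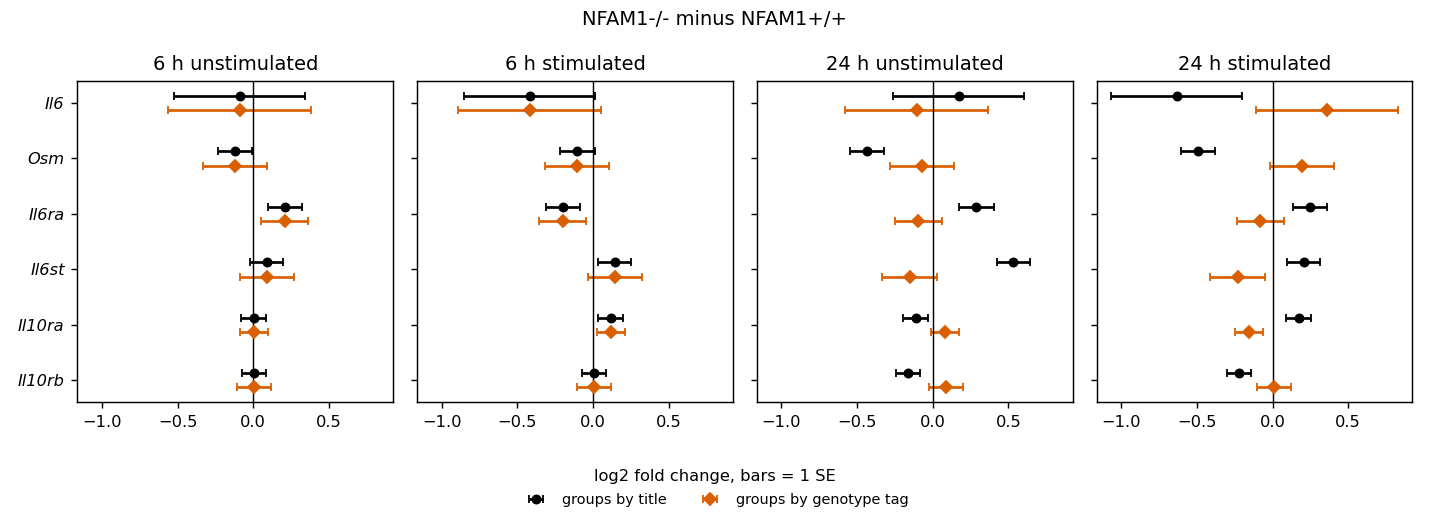
Log2 fold change of NFAM1-/- over NFAM1+/+ monocytes for the 6 listed genes in the 4 conditions, with groups from the title (black circles) and from the genotype tag (orange diamonds); bars are 1 SE. Estimates coincide at 6 h, where the labels name 1 genotype, and at 24 h without the stimulus Il6st is at 0.53 by title and -0.15 by tag.

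Genes of the pathway outside the members are given in 6 lists, whose counts as deposited stand beside the same 19.1% and 20.6% of all genes called higher and lower at 6 h, and 14.6% and 18.7% at 24 h. Counts with own totals stand beside 1562 genes called higher and 5563 lower of the 12782 tested at 6 h, and 1435 and 3281 at 24 h. The medians over all genes were then -0.86 at 6 h and -0.33 at 24 h. The ligands and receptors related to IL-6 were thinly represented. Of 14 other members of the gp130 family 8 were listed, and at 6 h 2 were called higher with the stimulus, 1 lower and 5 neither (median log2 fold change 0.12, against -0.13 over all genes). With own totals 1 was called higher and 3 lower, with a median of -0.61. Il27, a subunit of the cytokine IL-27, went from 1.77 to 2.35 CPM to 332 to 361 CPM over 4 libraries each (log2 fold change 7.43, adjusted p = 1.39e-14). Lif, a ligand that uses gp130, rose from 0.966 to 2.57 CPM to 3.21 to 4.57 CPM (1.37, adjusted p = 6.27e-05), and with own totals it came to 0.64 and was not called. Il31ra, a receptor chain for IL-31, had 28 to 119 reads per library without and 4 to 12 with the stimulus (log2 fold change -2.16, adjusted p = 0.0249). It passed the filter on low values only through its unstimulated libraries, of which the highest was at 1.05 CPM, so its direction is a description. At 24 h 2 were called higher and 4 lower, with Lif at 10.1 to 11.1 CPM and a log2 fold change of 3.18. Osmr, the oncostatin M chain, was not among those listed.

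Of 9 other members of the IL-10 family 2 were listed. Ifnlr1, the receptor chain for type III interferons that pairs with Il10rb, fell at 6 h from 21.2 to 31.1 CPM to 1.21 to 2.76 CPM (log2 fold change -3.91, adjusted p = 2.24e-10) and was at 0.30 at 24 h. Il20rb, named after its values were seen, had a log2 fold change of 0.04 at 6 h and was higher at 24 h (1.85).

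Of 14 JAK-STAT relays and inhibitors, all listed, 6 were called higher at 6 h, 1 lower and 7 neither, with a median of 0.77. Socs1, a feedback inhibitor of Janus kinases, went from 1.21 to 3.31 CPM to 909 to 1406 CPM (log2 fold change 9.43, adjusted p = 9e-14). Gab1, an adaptor downstream of gp130, fell by 1.89 on the log2 scale (adjusted p = 9.43e-07). At 24 h 7 were called higher and 1 lower. With own totals 5 were called higher and 2 lower at 6 h, with a median of 0.04, and 6 and 1 at 24 h.

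All 17 genes of a list of STAT3 targets downstream of IL-6 or IL-10 were listed. At 6 h 7 were called higher, 4 lower and 6 neither, with a median of 0.90, and at 24 h 8 higher and 4 lower. Il1rn, the IL-1 receptor antagonist, reached 1037 to 1459 CPM from 40.4 to 63.4 CPM (log2 fold change 4.52, adjusted p = 5.54e-14), and the acute phase gene Saa3 55.5 to 67.7 CPM from 3.03 to 5.27 CPM (3.84, adjusted p = 2.34e-09). Cebpd, a C/EBP transcription factor, fell by 2.66 (log2 fold change -2.66, adjusted p = 2.11e-13), and the acute phase gene Hp, haptoglobin, by 1.78 (log2 fold change -1.78, adjusted p = 1.68e-08). With own totals 5 were called higher and 4 lower at both times, with medians of 0.17 and 0.55.

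Of 14 regulators of Il6 and Il10 transcripts 8 were called higher at 6 h and 0 lower, with a median of 1.14, and at 24 h 5 were higher and 2 lower. Arid5a, which binds and stabilizes the Il6 transcript, went from 13.7 to 19 CPM to 335 to 419 CPM (log2 fold change 4.58, adjusted p = 1.2e-16), and Crem, a cAMP-responsive factor, from 4.65 to 6.17 CPM to 123 to 125 CPM (4.55, adjusted p = 6.28e-13). With own totals 4 were called higher and 1 lower at 6 h, with a median of 0.41, and 4 and 2 at 24 h. Of 4 genes for shedding of the IL-6 receptor 1 was called higher, 1 lower and 2 neither at 6 h (median -0.31), and 1 higher and 2 lower at 24 h. With own totals 1 was higher and 2 lower at both times. Rhbdf2, a partner of the protease ADAM17, rose from 109 to 124 CPM to 567 to 623 CPM (2.33, adjusted p = 9.64e-15), and Rhbdf1 had a log2 fold change of -2.51 (adjusted p = 2.22e-05), on 6 to 8 reads per stimulated library. Rhbdf1 passed the filter only through unstimulated libraries of 24 h, at 2.78 to 3.77 CPM, so its direction is a description too. Adam10 and Adam17, proteases named after their values were seen, were not called at 6 h (-0.72 and 0.11). At 24 h Adam10 fell from 298 to 330 CPM to 110 to 133 CPM (log2 fold change -1.36, adjusted p = 7.87e-11), and Adam17 at -0.31 was again not called. With own totals Adam10 was called lower at 6 h as well (-1.45, adjusted p = 2.32e-11), and Adam17 was at -0.62 there, not called.

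**Figure D5:**
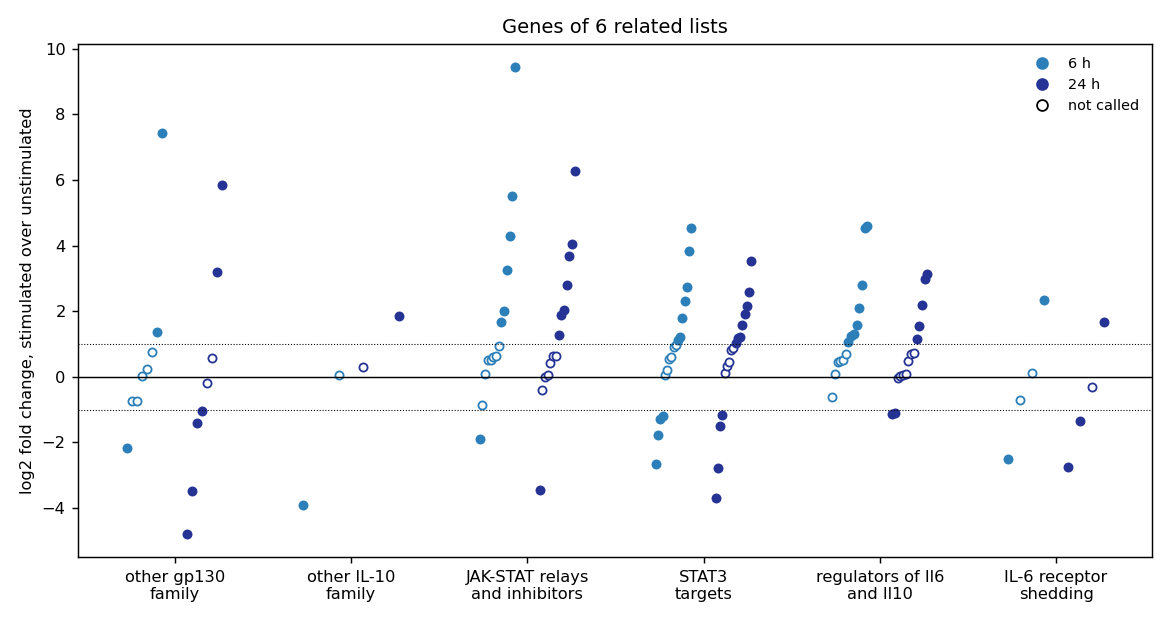
Log2 fold change of stimulated over unstimulated monocytes at 6 h (light) and 24 h (dark) for each listed gene of 6 related lists; filled points are called, and dotted lines mark 2-fold. The highest point is Socs1 at 6 h (9.43), and the STAT3 targets have called genes on both sides of 0 at each time.

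Between the genotypes 2 genes of these lists were called, both in unstimulated cells at 24 h by title. Lif was at 0.515 and 0.927 CPM in NFAM1-/- and 2.12 and 1.86 CPM in NFAM1+/+ libraries (log2 fold change -1.52, adjusted p = 0.0395). Il1rn was at 23.1 and 16.5 against 49.4 and 40 CPM (-1.19, adjusted p = 0.00362), and at 6 h without the stimulus, where the labels name 1 genotype, it was at 42.7 and 40.4 against 60.6 and 63.4 CPM without being called. By tag the 24 h libraries of both genes overlapped.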

How the data were processed

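Poly(A) RNA of mouse monocytes was sequenced in 16 non-stranded libraries. The submitters' processing notes name FastQC, STAR, edgeR and limma and the build GRCm39, without versions, and the study's methods name Rsubread for counting. The authors deposited log2 CPM values for 13085 genes, with replicates kept apart. Adding 0.5 to an integer read number and dividing by an effective library size gives back the values, with 100% of them within 0.05 of an integer, so the reads were recovered. Of the symbols 17 are written as dates and 1 is duplicated.

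The 12782 genes that reached 1 CPM in 2 or more libraries were tested, leaving out 303, with limma 3.58.1 in R 4.3.3, in 1 model of 8 groups by title, stimulus and time. The prior variance followed mean expression, and p-values were adjusted by Benjamini-Hochberg over all genes tested. Calls needed a 2-fold change and an adjusted p under 0.05, as in the study. Stimulus and time effects are means over the 2 genotypes. Ratios were tested with exact permutation tests (scipy 1.17.1). In simulated data for the stimulus at 6 h on 12782 genes, 54% of 50 genes changed 2-fold and 100% of 50 changed 4-fold were called, with 0 false calls. The simulation gave every gene the same preset spread between libraries, which was not estimated from these data. Genes changed 2-fold lie on the threshold itself. These figures therefore check the procedure and do not measure its error rate in these libraries.

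The members and lists were chosen with earlier results of these data known. Named genes are all members, up to 2 largest rises and 2 largest falls per list among those called for the stimulus at 6 h, listed genes called between genotypes, and the 3 genes most like each member. Of the list genes this rule names, 1 is not reported here, and Il20rb, Adam10 and Adam17 were added after their values were seen. Alternatives were other filters, scalings, variance models, labels and libraries, voom weights from the recovered reads, and leaving out each library. Precision is set by the differences between the 2 libraries of a group rather than by depth.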

Additional observations from a re-analysis of the deposited data

Results flagged for a closer look

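The response to IFN-γ plus CD40L differed between 6 and 24 h for 4 of the 6 genes by a test of the difference itself in limma, with Benjamini-Hochberg adjustment over all genes tested. The effect at 24 h minus that at 6 h was 1.71 on the log2 scale for Il6, -1.04 for Osm, -1.62 for Il10ra and 0.25 for Il10rb. Il6 passed the filter only through its stimulated libraries, and with own totals the difference of Osm came under 2-fold. In no set of 4 libraries of a stimulus and time did 1 library stand apart from the other 3 by Dixon's 95% criterion, over 32 sets of the 6 genes and 2 ratios.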

How the results depend on the processing

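Across 88 results and 1540 values under alternatives, 1403 were counted as unchanged. A fold change had to keep its direction and its side of the adjusted p threshold, and losing the minimum fold change did not count against it. A count had to stay within 1.5 times of its main value. Ratio differences with a library left out were counted as unchanged without regard to their p. The permutation test cannot then go below p = 0.0571. The number of genes called moved with the threshold and the filter. Without a minimum fold change it was 10003 for the stimulus at 6 h, 9564 at 24 h, 8233 and 9763 for 24 h against 6 h without and with the stimulus, 8588 for stimulus by time, 20 for genotype at 6 h without the stimulus, and 122 and 269 at 24 h. With a mean of at least 5 CPM it was 3275, 2554, 1446, 2746, 2658 and, for genotype at 6 h without the stimulus, 5. Members called without a minimum fold change were 6 for the stimulus at 24 h, 5 and 6 between the times, and 1 for genotype at 24 h in each condition. For 24 h against 6 h with the stimulus, 1 was called with own totals and 1 with quantile normalization.

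For the stimulus at 6 h Il6st was at -0.81 with own totals, -0.59 with quantile normalization and 0.10 centred on medians. At 24 h with own totals Osm was at 0.0954 and Il10ra at 0.063, Il10ra was at -0.15 with quantile normalization, and Il6st at -0.26 no longer passed the adjusted p with groups by tag (0.0792). The 12 libraries with 1 genotype in both labels gave 0.24 for Il6 between the times without the stimulus. For stimulus by time Il6ra was at 0.20 and Il6st at 0.21 with own totals, and Il6st at 0.052 with quantile normalization. The split of called genes was 48.1% higher for the stimulus at 6 h as deposited and 21.9% with own totals.

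Genotype counts were unstable. With groups by tag 5 genes were called at 6 h without the stimulus, and 2 and 3 at 24 h, against 37 and 74 by title. The 12 libraries gave 3 genes at 6 h with the stimulus, and 4 and 14 at 24 h, and quantile normalization gave 5 at 6 h with the stimulus. A prior variance without trend gave 14 and 5 at 24 h, and fits of only the groups compared 21 and 0. By tag the 24 h differences without the stimulus were -0.11 for Il6, -0.095 for Il6ra, -0.15 for Il6st, 0.080 for Il10ra and 0.089 for Il10rb. With the stimulus they were 0.36, -0.081, -0.23, -0.16 and 0.0097 in the same order and 0.19 for Osm, and Il6st was at -0.02 in the 12 libraries. Small genotype differences at 6 h changed sign, to -0.0044 for Il10ra and -0.0044 and -0.034 for Il10rb centred on medians. So did the interaction with the stimulus, to -0.017 and -0.014 for Osm (medians, voom weights) and to -0.0027, -0.024, -0.0295 and -0.0034 for Il10rb (own totals, quantile, medians, voom weights). The causes were not tested.

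Centred on medians Il6ra was at -0.9995 for the stimulus at 6 h, just under 2-fold. Leaving out each library kept every member call for the stimulus at 6 and 24 h. For stimulus by time 2 to 3 members were called. Genes called for genotype at 6 h ran from 1 (without library 4) to 40 (without 1) in unstimulated and from 1 (without 26) to 126 (without 10) in stimulated cells. At 24 h they ran from 7 (without 44) to 64 (without 43) and from 1 (without 58) to 182 (without 55), and for the interaction from 0 to 55 (without 10). Genotype differences at 6 h without the stimulus ran from -0.32 to 0.15 for Il6, -0.058 to 0.066 for Il10ra and -0.068 to 0.077 for Il10rb. With the stimulus they ran from -0.22 to 0.011 for Osm and -0.062 to 0.076 for Il10rb. At 24 h without the stimulus Il6 ran from -0.51 to 0.85. The interaction ran from -0.043 to 0.15 for Il6st, -0.098 to 0.13 for Osm and -0.069 to 0.076 for Il10rb.

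The planned Il6 to Il10 ratio was not run, since Il10 is not analysed here. No paired analysis was possible because the groups share no replicate numbers. The unstimulated Il6 levels rest on 58 to 96 reads at 6 h and on 28 to 80 at 24 h. The SD of their log2 CPM within NFAM1+/+ and NFAM1-/- groups was 0.332 and 0.241 at 6 h and, by title, 0.964 and 0.813 at 24 h. This spread limits what can be seen of genotype there.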

Other observations

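The genes that follow lie outside the rule for named genes and were chosen after their values were seen. Maf, a transcription factor known for raising Il10, had a log2 fold change with the stimulus of 2.81 at 6 h and -1.15 at 24 h, and Atf3, a repressor of Il6, 2.11 and -1.10. Lifr, the LIF receptor chain that pairs with gp130, had a log2 fold change of -0.73 at 6 h (adjusted p = 0.0133), under 2-fold. With own totals Lifr was at -1.46 there and was called lower (adjusted p = 6.56e-05). It was at 9.39 to 12.2 CPM in unstimulated and at 0.307 to 0.659 CPM in stimulated libraries at 24 h, a log2 fold change of -4.80, whereas its ligand Lif was at 3.18.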
